A study of Mus musculus with 10 samples.

Results

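The genes described here are the collagens, the laminin chains, the lysyl oxidases that crosslink matrix, and 5 partner glycoproteins of the extracellular matrix: fibronectin (Fn1), Sparc, perlecan (Hspg2) and the nidogens Nid1 and Nid2. They were chosen by symbol and number 65 of the 34745 genes in the deposited table. The data are RNA sequencing counts from 10 libraries of Hepa1-6, a mouse hepatoma cell line labelled as wild type. In 5 libraries the cells were untreated, and in 5 they had been kept for 48 h with cytotoxic CD8+ T cells, a setting the labels call an attack by these cells. The T cells were taken from spleens of male C57/BL6 mice, 6 to 8 weeks old, and had first been stimulated for 5 days through CD3 and CD28, each antibody being diluted 1:2000. Hepatoma cells of both groups were grown in DMEM with 10% serum and rinsed with PBS before lysis. The labels do not say that replicates were grown separately, and p-values therefore cover only the spread between these libraries.

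Collagens are triple helices of 3 chains that assemble in the secretory pathway. Fibrillar collagens form the tensile fibres of connective tissue, whereas collagen IV forms the sheet of the basement membrane together with laminins, nidogen and perlecan. Laminins are trimers of an alpha, a beta and a gamma chain that bind integrins on the cell surface. Lysyl oxidases are copper enzymes that oxidise lysines of collagen and elastin and so start covalent crosslinks. In liver, excess fibrillar collagen is the hallmark of fibrosis, and hepatic stellate cells are its best known source.

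Libraries held 12922263 to 17100662 counts. The 65 genes took 1.38% to 1.47% of the counts in untreated libraries and 1.53% to 1.61% after co-culture, and the ranges did not overlap. Of the 10 hepatocyte and hepatoma markers, the keratins Krt8 and Krt18 and the fetal liver protein gene Afp were well detected, with 85156, 37925 and 1525 counts over the untreated libraries. Afp and Krt8 were called lower after co-culture (log2 fold changes of -0.36 and -0.25, edgeR adjusted p = 0.004 and 0.0079). Krt18 was not called. The liver-defining genes Alb and Hnf4a had 0 counts in all untreated libraries and 4 and 1 after co-culture, and Apoa1, Apob, Ttr and Ahsg had at most 6 counts over either group. Trf, which encodes transferrin, went from 2 to 274 counts and was called higher, but it had enough counts to be tested only through its co-culture libraries. The defining markers of hepatocytes were therefore at or near 0 in cells labelled as hepatoma. T cell markers were at or near 0, with Cd3e, Cd3d, Cd8a, Cd2 and Prf1 at 0 counts in all 10 libraries. In bulk RNA, fewer cells of a type and less RNA per cell cannot be told apart.

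After co-culture, the collagen IV genes Col4a1, Col4a2 and Col4a5, the laminin genes Lama5 and Lamb1 and the perlecan gene were higher, as were the lysyl oxidases Loxl2, Loxl3 and Loxl4, and 2 abundant fibrillar collagen chains, Col5a3 and Col3a1, were lower. Col4a1, a main chain of collagen IV, rose from 869.7 ± 42.7 to 1090.4 ± 28.9 CPM (CPM, counts scaled to a common library total), and Hspg2, which encodes perlecan, rose from 1139 ± 102 to 1464 ± 49.1 CPM (SD, n = 5). Col5a3, a chain of collagen V, fell from 716 ± 70.7 to 469 ± 33.4 CPM (SD, n = 5). The abundant members moved by modest amounts, and the largest fold changes were in genes near the detection floor in untreated cells, such as Lox and Col1a2. Of the 65 genes, 40 had enough counts to be tested, which took about 0.661 CPM in 5 libraries. Among these, 24 were called higher and 3 lower (edgeR quasi-likelihood test, adjusted p below 0.05 over all genes tested), and 13 were not called. Of all 12666 genes tested, 33.5% were called in either direction, 17.4% were called higher and 16.1% lower. The median log2 fold change, co-culture over untreated, was 0.21 over the 40 genes and 0.01 over all genes tested.

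Abundance bears on how many genes can be called, so calls were also counted above a mean level of 10 CPM over all libraries. At that level 19 of 28 matrix genes were called higher and 2 lower, with a median of 0.22. Among all 9302 genes at that level, 36.7% were called, 19.5% were called higher and 17.2% lower, with a median of 0.01. All 5 co-culture libraries lay above all 5 untreated libraries for 22 of the 40 matrix genes and below for 3. The shares over all genes tested were 12.6% above and 11.1% below. Of the 40, 6 fell under the low-count limit in some untreated libraries, and 4 of these (Col1a2, Col8a1, Lamb3 and Lox) were called higher. The other 34 held 20 of the genes called higher and all 3 called lower.

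**Figure D1:**
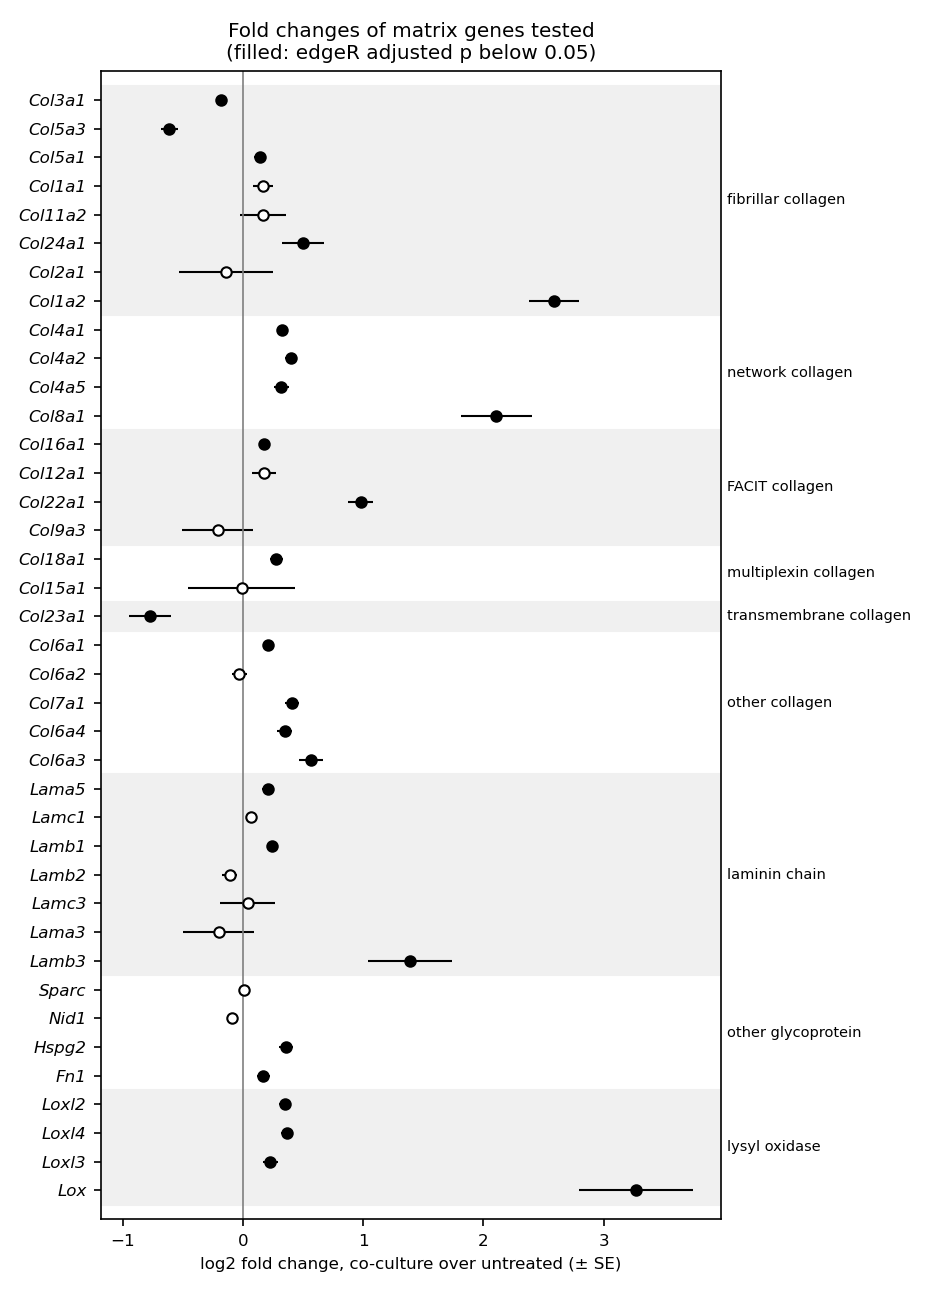
Log2 fold change of co-culture over untreated (x axis, bars are SE) for the matrix genes tested and reported here, grouped by role and ordered by untreated FPKM within a role, with filled points for edgeR adjusted p below 0.05. Filled points lie to the left of 0 for Col5a3, Col3a1 and Col23a1 and otherwise to the right, and those farthest to the right, Lox, Col1a2, Col8a1 and Lamb3, are the called genes under the low-count limit in untreated libraries.

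Levels per gene length show which matrix the cells transcribed. FPKM, the count per unit of gene length and library total, allows genes to be compared with each other within a library. The highest untreated level was that of Sparc, a collagen-binding glycoprotein, at 410.0 ± 5.75 FPKM. Next came Col3a1, the chain of the fibrillar collagen III, at 207 ± 7.02 FPKM, and Col6a1, a chain of the beaded filament collagen VI, at 194 ± 9.68 FPKM (SD, n = 5), whose ranges within SD are close to each other. Nid1 (164 FPKM), Col4a1 (122 FPKM), Col5a3 (102 FPKM) and Lama5 (90.7 FPKM) followed. Col4a2, Hspg2, Lamc1, Col18a1 and Loxl2 lay between 50.5 and 67.98 FPKM.

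Several chains that share a trimer were far apart in level. Col1a1, the major chain of collagen I, was at 5.49 ± 0.690 FPKM, while its partner Col1a2 was at 0.0329 ± 0.00926 FPKM. The deposited FPKM imply a gene length of 16209 bases for Col1a2 against 6934 for Col1a1, but the counts were also far apart, at 41 and 2922 over the untreated libraries. Col5a2, the usual partner of Col5a1 in collagen V, had 13 counts over the untreated libraries, although Col5a1 was at 27.4 ± 1.19 FPKM. Col6a2 and Col6a3, partners of Col6a1, were at 15.6 and 0.827 FPKM. Among laminin alpha chains, Lama5 stood alone. No count of Lama1 was found in any of the 10 libraries, a limit of 0.0388 CPM over the untreated group and 0.0405 CPM over the co-culture group, and Lama2 and Lama4 had at most 15 counts over either group.

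**Figure D2:**
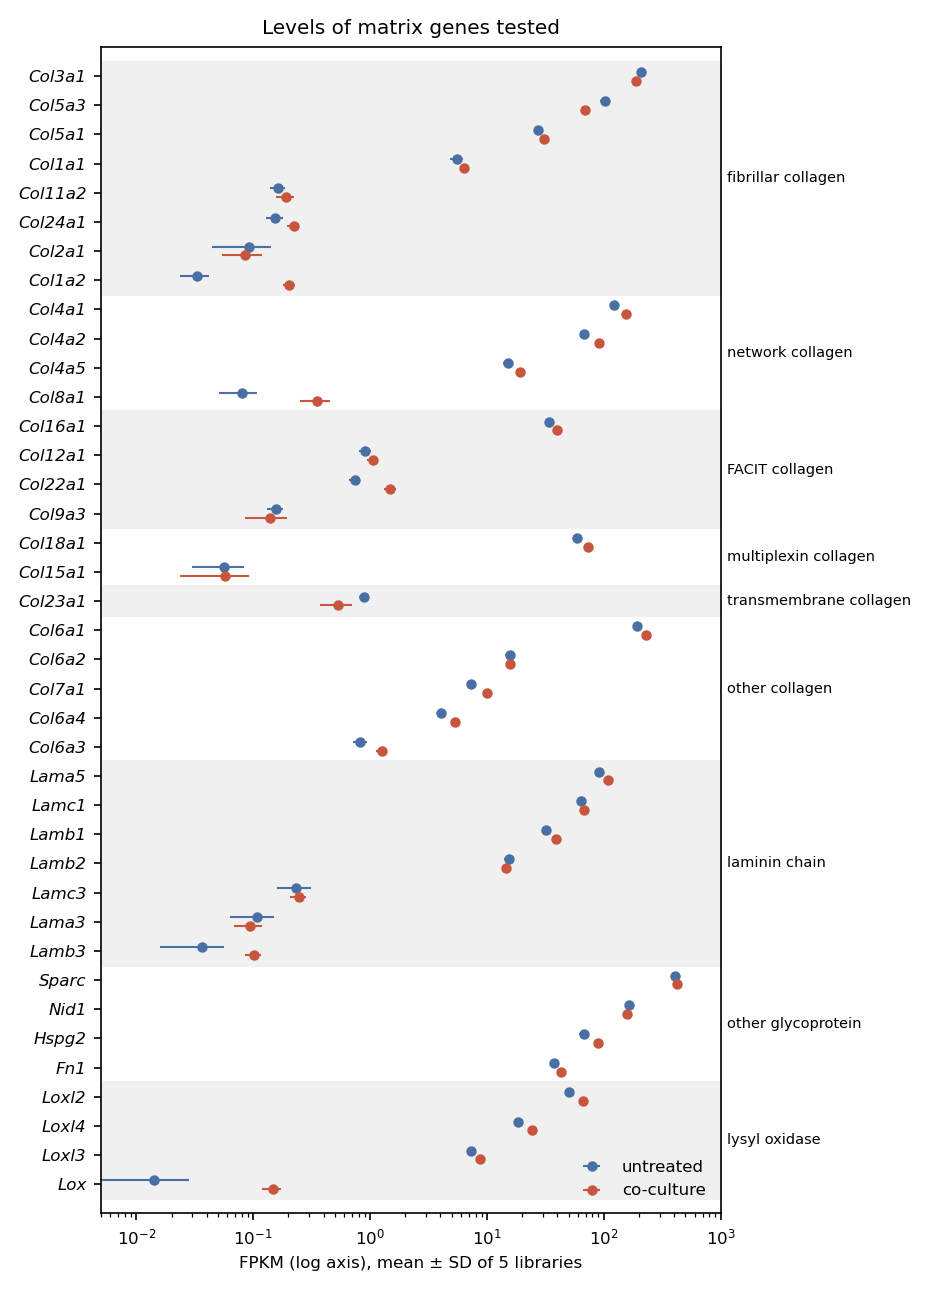
Mean FPKM (log axis, bars are SD of 5 libraries) of the matrix genes tested and reported here, untreated in blue and co-culture in red. Sparc, Col3a1, Col6a1, Col4a1 and Nid1 lie above 100 FPKM in both groups, and Col1a2, Col8a1, Lamb3, Lox, Col2a1 and Col15a1 lie below 0.1 FPKM in untreated cells, where the bar of Lox runs off the axis.

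Collagen IV is the network-forming collagen of basement membranes, and its genes sit in head-to-head pairs that are transcribed away from a common start region. In the deposited table, Col4a1 (chromosome 8, 11198423 to 11312826 in mm10, minus strand) and Col4a2 (chromosome 8, 11312805 to 11449287, plus strand) overlap by 22 bases at their starts. Col4a3 and Col4a4 on chromosome 1 are 71 bases apart, and Col4a5 and Col4a6 on chromosome X are 1308 bases apart. The start regions of Col4a1 and Col4a2 are shown because both genes rose and their windows share 78 bases, a link that was not tested. They come from RefSeq on GRCm38.p6, run from 250 bases before to 50 bases after the start, and lie at chr8:11312777-11313076 (minus strand) and chr8:11312555-11312854 (plus strand). Capitals mark the 78 bases, chr8:11312777-11312854, that both windows contain on opposite strands.
Col4a1: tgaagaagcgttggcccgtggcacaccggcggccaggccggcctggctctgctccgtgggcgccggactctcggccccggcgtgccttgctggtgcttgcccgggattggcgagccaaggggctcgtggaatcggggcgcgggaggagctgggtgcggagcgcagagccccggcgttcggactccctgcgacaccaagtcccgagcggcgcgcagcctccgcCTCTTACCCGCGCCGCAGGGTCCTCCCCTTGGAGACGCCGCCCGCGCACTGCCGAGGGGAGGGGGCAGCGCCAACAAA
Col4a2: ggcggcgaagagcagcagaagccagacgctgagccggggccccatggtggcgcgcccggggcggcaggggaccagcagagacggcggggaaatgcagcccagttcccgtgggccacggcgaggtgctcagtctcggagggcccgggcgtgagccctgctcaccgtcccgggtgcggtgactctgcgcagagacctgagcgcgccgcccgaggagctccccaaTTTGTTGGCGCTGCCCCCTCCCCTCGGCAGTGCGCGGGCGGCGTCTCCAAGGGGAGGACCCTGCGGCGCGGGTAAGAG
The GC content was 74% and 73.7%, where the median over all promoter windows was 52.7%.

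Both genes of this pair rose. Col4a1 was at 846, 821, 862, 885 and 934 CPM in untreated replicates 1 to 5. After co-culture it was at 1069.5, 1127, 1100.4, 1101 and 1054 CPM (log2 fold change of 0.33 with SE 0.0438, adjusted p = 9.02e-05 by edgeR). Every co-culture library exceeded every untreated one. Col4a2 was at 451, 444, 462, 488 and 521 CPM in untreated libraries and at 617, 663, 623, 617 and 593 CPM after co-culture (log2 fold change of 0.40 with SE 0.0512, adjusted p = 6.46e-05 by edgeR). Its groups did not overlap either, and co-culture replicate 2 was the highest library for both genes.

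Col4a5, which encodes a chain of specialised basement membranes such as that of the kidney glomerulus, was at 138, 135, 120.5, 113 and 118 CPM without T cells. It reached 159.5, 141, 156, 161 and 161 CPM with them (log2 fold change of 0.32 with SE 0.0630, adjusted p = 0.00182 by edgeR). All co-culture libraries were above all untreated libraries, although co-culture replicate 2 came close to untreated replicate 1. Its head-to-head neighbour Col4a6 had 7 counts over the untreated and 11 over the co-culture libraries, a ratio of 1.64 (exact 95% interval 0.581 to 5.00, counting error only). Col4a3 and Col4a4 each had 2 and 1 counts. The network collagen Col8a1 is described with the genes of low level below, and its family members Col8a2 (1 and 4 counts) and Col10a1 (0 in all libraries) could not be tested.

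Laminin genes changed chain by chain. Of 11 laminin chains, 8 were tested, 4 were called higher and none lower, beside 17.4% higher and 16.1% lower over all genes tested. Lama5, the alpha chain of most adult epithelial and vascular basement membranes, was at 1064, 1059, 1102, 1217 and 1234 CPM in untreated cells. After co-culture it was at 1313, 1291, 1364, 1361 and 1246 CPM (log2 fold change of 0.21 with SE 0.0539, adjusted p = 0.00839 by edgeR). The groups did not overlap, although untreated replicate 5 came close to co-culture replicate 5. Lamb1, a beta chain that pairs with it, was at 425, 429, 398, 413 and 412 CPM and then at 487, 464, 503, 508 and 487 CPM (log2 fold change of 0.24 with SE 0.0404, adjusted p = 0.000564 by edgeR), with no overlap. Lamc1, the gamma chain of most laminins, was at 653, 647, 653, 679.7 and 642 CPM and 679, 663, 686, 717 and 699 CPM (log2 fold change of 0.07 with SE 0.0381, adjusted p = 0.164 by edgeR). Its groups overlapped, and it was not called. With library totals as the only scaling its log2 fold change was 0.11 and the gene was called (edgeR adjusted p = 0.0472, range over all settings 0.0419 to 0.393).

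Lamb2, Lama3, Lamb3 and Lamc3 were lower in level. Lamb3, a beta chain of epithelial laminin, rose from 0.298 ± 0.169 to 0.802 ± 0.111 CPM (log2 fold change of 1.39 with SE 0.352, adjusted p = 0.00818 by edgeR, n = 5), but it was tested only because its co-culture libraries passed the low-count limit. Lama3, an alpha chain of epithelial laminin, was at 1.16 ± 0.459 and 0.998 ± 0.276 CPM (SD, n = 5) and was not called (edgeR adjusted p = 0.645). Lamb2 (-0.11) and Lamc3 (0.04, log2 fold changes) were not called (edgeR adjusted p = 0.208 and 0.909).

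Perlecan and nidogen, which tie the laminin and collagen IV sheets together, differed in outcome. Hspg2, the perlecan gene (chromosome 4, 137468769 to 137570630), was at 1070.4, 1031, 1101, 1231 and 1262 CPM in untreated libraries. It stood at 1467, 1414, 1497, 1527 and 1418 CPM after co-culture (log2 fold change of 0.36 with SE 0.0587, adjusted p = 0.000391 by edgeR). Every co-culture library was higher than every untreated one. Nid1 was at 1066, 1026, 993, 976 and 956 CPM and at 951, 887, 944, 987 and 958 CPM (log2 fold change of -0.09 with SE 0.0446, adjusted p = 0.161 by edgeR). Its libraries overlapped between groups, and the gene was not called. Nid2 had 3 counts over the untreated and 19 over the co-culture libraries, a ratio of 6.62 (exact 95% interval 1.95 to 34.9).

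Fn1, the fibronectin gene, was at 700.0, 637, 699.5, 669.8 and 749.7 CPM in untreated cells and at 790.0, 735, 726, 842 and 787 CPM after co-culture (log2 fold change of 0.17 with SE 0.0545, adjusted p = 0.0308 by edgeR). The groups overlapped, because untreated replicate 5 was above co-culture replicates 2 and 3. Leaving out 1 library ended the call in 7 of 10 cases (edgeR adjusted p 0.0524 to 0.0981), the exceptions being the fits without untreated replicate 5, co-culture replicate 2 and co-culture replicate 3. Sparc, the most abundant of the genes per length, was at 1782, 1853, 1819, 1876 and 1850.1 CPM and at 1827, 1933, 1813, 1859 and 1824 CPM (log2 fold change of 0.01 with SE 0.0381, adjusted p = 0.844 by edgeR). Its groups overlapped almost fully.

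Collagen XVIII and collagen VII are further components at basement membranes. Col18a1, the source of the angiogenesis inhibitor endostatin, was at 632, 628, 654, 711 and 740.0 CPM and rose to 815, 870.4, 835, 807 and 766 CPM (log2 fold change of 0.28 with SE 0.0553, adjusted p = 0.00158 by edgeR). Col7a1, whose product forms the anchoring fibrils under epithelia, was at 77.3, 77.4, 82.5, 86.4 and 93.1 CPM and rose to 107, 112, 117, 115 and 104 CPM (log2 fold change of 0.41 with SE 0.0591, adjusted p = 0.000149 by edgeR). For both genes, all co-culture libraries were above all untreated libraries. Col15a1, the other multiplexin, was at 0.533 and 0.530 CPM and was not called (edgeR adjusted p = 0.994).

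**Figure D3:**
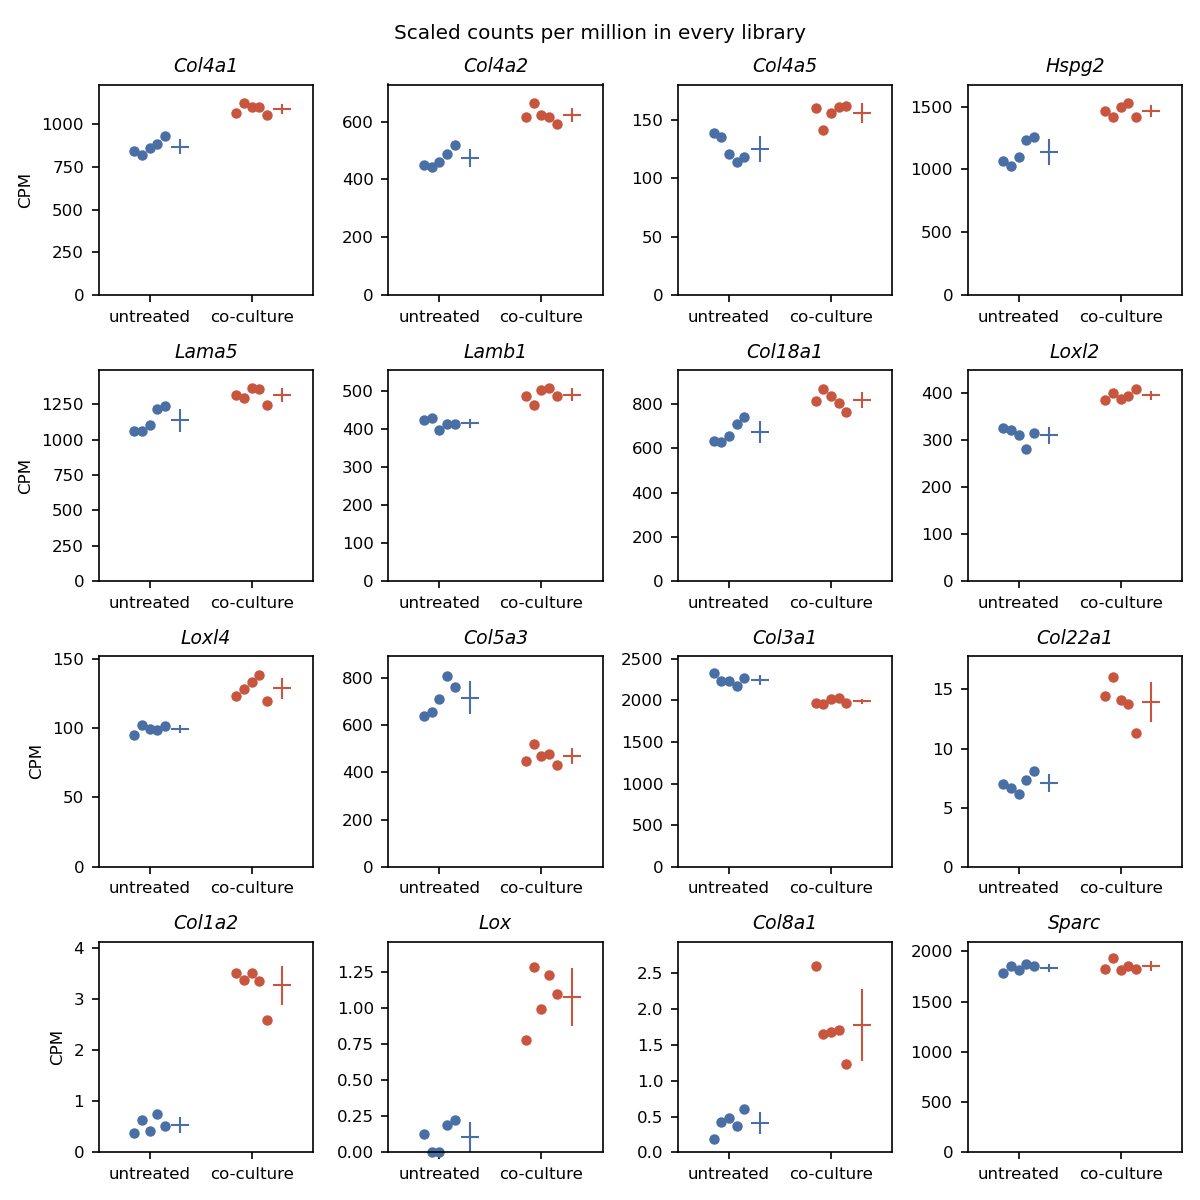
TMM-scaled CPM of 16 matrix genes in every library (points, 5 per group, with mean ± SD beside them), on axes that start at 0. Co-culture libraries lie above all untreated libraries in 13 panels and below them for Col5a3 and Col3a1, and the groups overlap for Sparc.

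Fibrillar collagens moved in both directions. Of 11 chains, 8 were tested, 3 were called higher and 2 lower, beside 17.4% higher and 16.1% lower over all genes tested. Col5a3 is a chain of collagen V, which starts and limits the thickness of collagen fibrils. It lies on chromosome 9, 20770050 to 20815067, minus strand. Its level was 641, 656, 713, 808 and 762 CPM in untreated libraries and 447, 520.2, 468, 476 and 433 CPM after co-culture (log2 fold change of -0.61 with SE 0.0698, adjusted p = 2.29e-05 by edgeR). Every co-culture library was lower than every untreated one, by a clear margin. Col5a1, the chain common to collagen V trimers, was at 238, 227, 242, 254 and 258 CPM and at 266, 278, 271, 272 and 259.6 CPM (log2 fold change of 0.14 with SE 0.0441, adjusted p = 0.0222 by edgeR). The groups did not overlap, but the lowest co-culture library was only just above the highest untreated library. The call of Col5a1 was lost without untreated replicate 1, 2 or 3 or co-culture replicate 2, 3 or 4 (edgeR adjusted p 0.0514 to 0.0610).

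Col3a1, the most abundant collagen gene in the set, lies on chromosome 1, 45311538 to 45349706, plus strand. It was at 2329, 2238, 2237, 2171 and 2269 CPM in untreated libraries. After co-culture it was at 1971, 1959.9, 2013, 2030.3 and 1976 CPM (log2 fold change of -0.18 with SE 0.0377, adjusted p = 0.00289 by edgeR). All co-culture libraries were lower, and the fall was small. Its neighbour Col5a2, 24614 bases away on the opposite strand, had 13 and 31 counts, a ratio of 2.49 (exact 95% interval 1.27 to 5.19). The start regions of Col5a3 and Col3a1 are shown because these 2 abundant genes were lower while most others were higher. They lie at chr9:20815018-20815317 (minus strand) and chr1:45311288-45311587 (plus strand), from RefSeq on GRCm38.p6. Capitals mark matches, on either strand, of the GC box (GGGCGG), of the CCAAT box with those letters, and of the TATA box motif TATAAA.
Col5a3: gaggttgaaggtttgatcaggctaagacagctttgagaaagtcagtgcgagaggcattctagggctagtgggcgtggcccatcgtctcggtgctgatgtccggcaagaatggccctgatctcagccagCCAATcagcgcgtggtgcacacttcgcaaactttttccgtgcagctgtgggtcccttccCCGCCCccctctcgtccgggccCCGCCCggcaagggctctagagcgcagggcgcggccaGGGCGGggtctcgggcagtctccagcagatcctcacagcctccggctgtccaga
Col3a1: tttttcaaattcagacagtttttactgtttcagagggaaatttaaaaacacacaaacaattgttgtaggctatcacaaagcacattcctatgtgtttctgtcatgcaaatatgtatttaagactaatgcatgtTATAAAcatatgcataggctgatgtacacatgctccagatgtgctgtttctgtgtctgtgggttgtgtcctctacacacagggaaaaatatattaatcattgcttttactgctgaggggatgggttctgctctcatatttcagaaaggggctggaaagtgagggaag
The window of Col5a3 held 3 matches of GGGCGG and 1 of CCAAT, and its GC content was 63.3%. That of Col3a1 held 1 match of TATAAA, none of GGGCGG or CCAAT, and had a GC content of 37.7%.

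A promoter window was found for 44 of the 65 genes, and 5 motifs were searched on both strands of each window. None of the motifs contains another. GGGCGG, the GC box bound by Sp factors, was in 63.6% of the matrix windows and in 35.6% of all 32817 windows. The median GC content was 60.2% and 52.7% respectively. CCAAT was in 31.8% against 37.4% and TATAAA in 11.4% against 13.6%. TGANTCA, the AP-1 site, was in 1 matrix window and in 7.81% of all windows. The core of the interferon-stimulated response element was in 0 of 44 matrix windows and in 3.43% of all windows. These are matches of letters in 300 bases and say nothing of binding.

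Col24a1, a fibrillar collagen known from developing bone, was near the limit of detection. It was at 1.87, 1.55, 1.36, 1.25 and 1.43 CPM and at 2.15, 2.46, 2.22, 2.06 and 1.69 CPM (log2 fold change of 0.50 with SE 0.172, adjusted p = 0.0397 by edgeR), and the groups overlapped. Leaving out 1 library ended its call in 8 of 10 cases (edgeR adjusted p 0.0598 to 0.0943), and the call held only without untreated replicate 1 or co-culture replicate 5. Col1a1 was at 38.5 ± 4.67 and 43.2 ± 2.52 CPM (SD, n = 5) and was not called (edgeR adjusted p = 0.142). Col11a2 and Col2a1, fibrillar chains of cartilage, were at or below 1.47 CPM in both groups and were not called.

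Collagens of the FACIT family decorate fibrils rather than forming them. Col22a1, known from tissue junctions such as that of muscle and tendon, was at 6.98, 6.64, 6.17, 7.37 and 8.13 CPM in untreated cells. It reached 14.4, 16.02, 14.1, 13.8 and 11.3 CPM after co-culture (log2 fold change of 0.98 with SE 0.106, adjusted p = 1.41e-05 by edgeR), a 1.98-fold rise, and the groups were far apart. Col16a1 was at 317, 313, 322, 334 and 352 CPM and then at 360.2, 373, 385, 377 and 361 CPM (log2 fold change of 0.18 with SE 0.0431, adjusted p = 0.00594 by edgeR), with no overlap between the groups. Col12a1 (0.18) and Col9a3 (-0.21, log2 fold changes) were not called (edgeR adjusted p = 0.183 and 0.637). The transmembrane collagen gene Col23a1 was at 5.54, 5.93, 5.40, 4.56 and 5.50 CPM and fell to 2.60, 2.46, 2.53, 3.63 and 4.54 CPM (log2 fold change of -0.77 with SE 0.173, adjusted p = 0.004 by edgeR). Its groups were separate by a small margin, since co-culture replicate 5 was just under untreated replicate 4.

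Collagen VI forms beaded filaments around cells, and its chains differed. Col6a1 was at 869.9, 813, 904, 914 and 945 CPM and at 998, 1033, 1055, 1038 and 1009 CPM (log2 fold change of 0.21 with SE 0.0456, adjusted p = 0.00353 by edgeR). Col6a3 was at 13.2, 10.4, 11.2, 9.81 and 12.6 CPM and at 17.9, 14.5, 18.8, 16.4 and 17.2 CPM (log2 fold change of 0.57 with SE 0.0992, adjusted p = 0.000681 by edgeR). Col6a4, an alternative chain found in the mouse, was at 38.8, 37.1, 36.9, 42.7 and 38.6 CPM and at 51.1, 49.2, 48.2, 53.1 and 46.4 CPM (log2 fold change of 0.35 with SE 0.0614, adjusted p = 0.00066 by edgeR). In these 3 genes all co-culture libraries were above all untreated ones. Col6a2, by contrast, was at 134 ± 12.9 and 131 ± 5.51 CPM (SD, n = 5, edgeR adjusted p = 0.724). Col6a5 and Col6a6, the neighbours of Col6a4 on chromosome 9, had at most 6 counts over either group.

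Because chains of a trimer are made together, ratios of FPKM between partner chains were compared in every library. The ratio of Lamb1 to Lamb2, which are alternative rather than partner chains, was compared as well. The 5 pairs were chosen after the values were seen, so their ratios are a description with no test. Col5a3 over Col5a1 was 3.41, 3.67, 3.74, 4.04 and 3.75 in untreated libraries and 2.13, 2.38, 2.19, 2.22 and 2.12 after co-culture (mean log2 ratio difference -0.75). This was the widest shift of the 5, in a pair whose genes had moved in opposite directions. Lamb1 over Lamb2, alternative beta chains, was 2.12, 2.3, 2.11, 2.19 and 1.81 and then 2.82, 2.71, 2.52, 2.67 and 2.63 (mean log2 ratio difference 0.35). Col6a1 over Col6a2 was 12.2, 12.8, 12.9, 12.7 and 11.5 and then 15.1, 15.1, 14.4, 14.3 and 14.3 (mean log2 ratio difference 0.24). In these 3 pairs the groups did not overlap.

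The ratio of Col4a1 to Col4a2 moved least. It was 1.83, 1.8, 1.82, 1.77 and 1.75 in untreated libraries and 1.69, 1.66, 1.72, 1.74 and 1.73 after co-culture (mean log2 ratio difference -0.07). The groups did not overlap, but the shift was far smaller than in the other pairs named so far. Lama5 over Lamc1 was 1.35, 1.35, 1.39, 1.48 and 1.59 and then 1.6, 1.61, 1.64, 1.57 and 1.47 (mean log2 ratio difference 0.14). These groups overlapped.

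**Figure D4:**
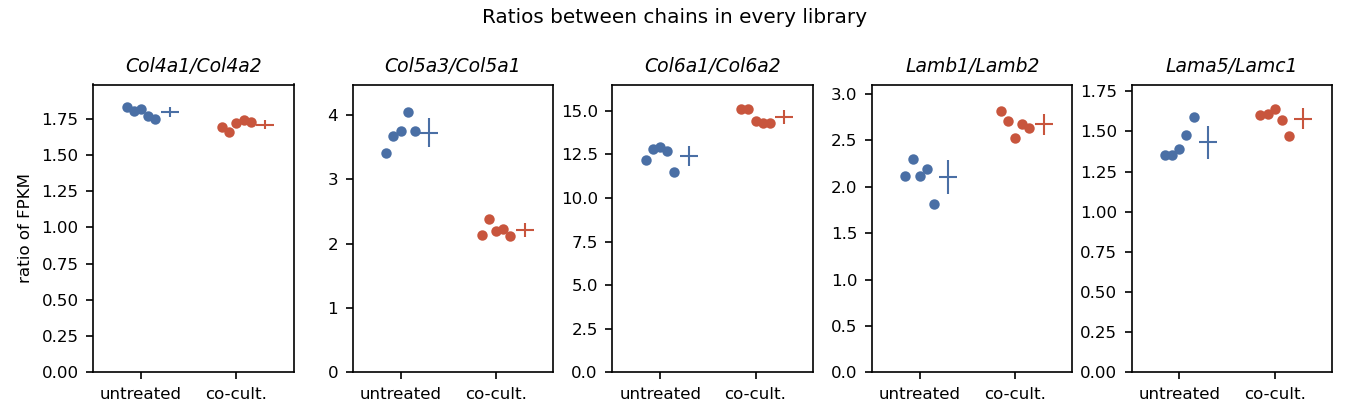
Ratio of FPKM between partner chains, or between the alternative chains Lamb1 and Lamb2, in every library (points, 5 per group, with mean ± SD beside them), on axes that start at 0. The Col5a3/Col5a1 ratio lies between 3.41 and 4.04 in untreated libraries and between 2.12 and 2.38 after co-culture, whereas Col4a1/Col4a2 stays between 1.66 and 1.83 throughout.

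Of the lysyl oxidase genes, the 3 above the low-count limit in all libraries rose, and Lox, above it only after co-culture, is described with the genes of low level. Loxl2, whose product crosslinks collagen IV in basement membranes, lies on chromosome 14, 69609068 to 69695834. It was at 326, 320.0, 309.9, 279.6 and 315 CPM in untreated libraries and at 384, 400.3, 388, 393 and 408 CPM after co-culture (log2 fold change of 0.35 with SE 0.0464, adjusted p = 8.56e-05 by edgeR). Loxl4 was at 94.9, 102, 99.4, 98.8 and 102 CPM and then at 124, 128, 133, 139 and 119.7 CPM (log2 fold change of 0.37 with SE 0.0487, adjusted p = 7.47e-05 by edgeR). Loxl3 was at 40.9, 35.6, 42.8, 40.1 and 43.3 CPM and then at 46.6, 47.8, 48.99, 48.4 and 45.8 CPM (log2 fold change of 0.23 with SE 0.0620, adjusted p = 0.0122 by edgeR). In none of the 3 did the groups overlap. Per length, Loxl2 was the highest of the family at 50.5 ± 3.35 FPKM in untreated cells and 65.8 ± 1.75 FPKM after co-culture, above Loxl4 at 18.3 and Loxl3 at 7.24 FPKM in untreated cells. Loxl1, the elastin-linked member, had 0 counts in all untreated libraries and 14 over the co-culture libraries, at least 4.88-fold higher against a floor of 3 counts over the untreated group.

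Among the genes tested, the steepest relative rises were in 3 with almost no counts in untreated cells. Lox, the founding lysyl oxidase, was at 0.125, 0, 0, 0.187 and 0.226 CPM in untreated libraries and at 0.780, 1.29, 0.997, 1.23 and 1.10 CPM after co-culture (log2 fold change of 3.27 with SE 0.470, adjusted p = 0.000155 by edgeR). These were 8 and 81 counts in all. Col1a2 was at 0.374, 0.635, 0.415, 0.750 and 0.527 CPM and at 3.51, 3.38, 3.53, 3.36 and 2.59 CPM (log2 fold change of 2.59 with SE 0.206, adjusted p = 9.17e-07 by edgeR), or 41 and 244 counts. Col8a1, a collagen of vessel walls and of the corneal membrane, was at 0.187, 0.424, 0.475, 0.375 and 0.602 CPM and at 2.60, 1.66, 1.69, 1.71 and 1.23 CPM (log2 fold change of 2.11 with SE 0.295, adjusted p = 0.000126 by edgeR), or 31 and 133 counts. No co-culture library of these 3 genes overlapped an untreated one, but none would have passed the low-count limit on its untreated libraries alone.

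Markers of other cell types stood as follows in the same libraries. The 10 macrophage markers summed to 31.3 to 35.6 CPM in untreated and 52.8 to 60.3 CPM in co-culture libraries, with 3 of 6 tested called higher and none at 0 throughout. Over all genes tested, the shares were 17.4% called higher and 16.1% called lower. Adgre1, the gene of the macrophage marker F4/80, went from 12 to 276 counts. Lyz2, a lysozyme of macrophages, went from 72 to 1366 counts, and Csf1r, also called higher, from 34 to 114. Adgre1 was over the low-count limit in 0 untreated libraries, Csf1r in 1 and Lyz2 in 4. All 3 were thus tested through their co-culture libraries. Cd68, Mrc1 and Mpeg1 were not called. The rest of the macrophage list had too few counts to be tested. Of these, Itgam went from 1 to 55 counts, C1qb from 0 to 20, C1qa from 0 to 14 and Fcgr1 from 6 to 22. Cd68, the most abundant of the macrophage list, was at 25.08 CPM in untreated and 25.14 CPM in co-culture libraries. Ptprc, the pan-leukocyte gene for CD45, was counted in the T cell list and went from 6 to 40 counts. The 12 fibroblast and stellate cell markers summed to 42.7 to 52.9 CPM in untreated and 36.2 to 41.2 CPM in co-culture libraries, with none of 4 tested called higher and 1, Pdgfrb, called lower. Lrat was at 0 throughout. Pdgfrb, the most abundant of that list, fell from 26.13 to 15.78 CPM, while Pdgfra, Des and Dcn were not called. Among genes of the list with too few counts to be tested, Thy1 and Postn went from 0 to 8 counts each. Lum went from 5 to 19 and Ngfr from 21 to 14. The 8 endothelial markers summed to 7.08 to 9.60 and 8.84 to 11.7 CPM, with 1 of 3 tested called higher and Emcn and Cldn5 at 0. The 10 T cell markers summed to at most 0.498 and 1.24 CPM. The part of other cells in the rises of Lox, Col1a2, Col8a1 and Lamb3 was not tested.

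**Figure D5:**
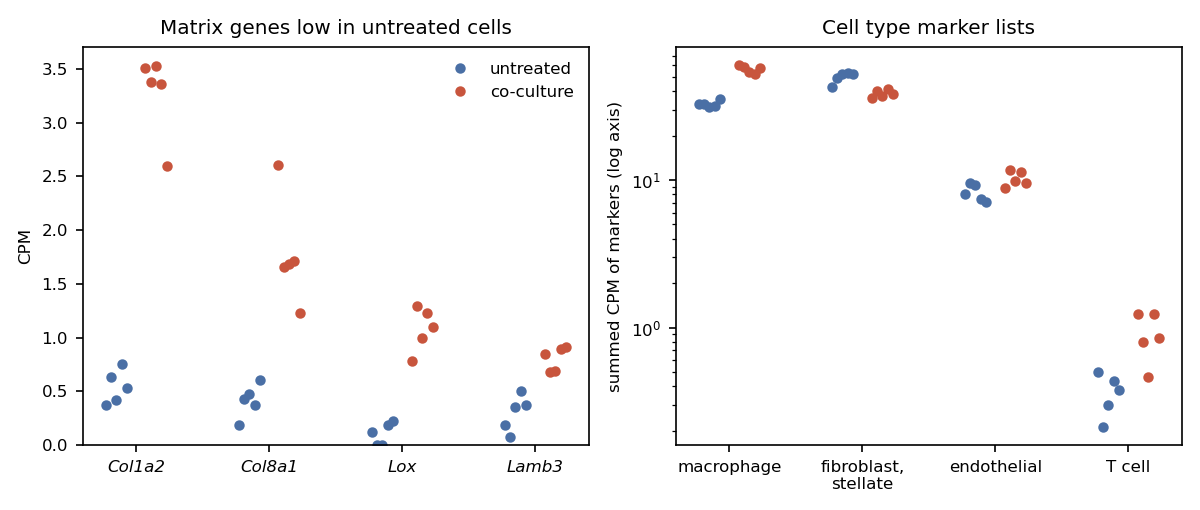
Left, CPM in every library of the 4 matrix genes that were under the low-count limit in untreated cells and called higher. Right, summed CPM of 4 marker lists in every library on a log axis, where the macrophage sum is higher in all co-culture libraries (52.8 to 60.3 against 31.3 to 35.6 CPM) and the fibroblast and stellate cell sum is lower (36.2 to 41.2 against 42.7 to 52.9 CPM).

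Of the 25 genes that could not be tested, 5 had 0 counts in all libraries (Col10a1, Col19a1, Col9a1, Col9a2 and Lama1). No untested gene had more than 51 counts over the untreated or 31 over the co-culture libraries. Col14a1, a FACIT collagen of fibrous tissue, had 51 and 21 counts, a ratio of 0.430 (exact 95% interval 0.246 to 0.728). Lama2, the laminin alpha chain of muscle, had 5 and 15 counts, a ratio of 3.13 (1.08 to 11), and Col17a1, a hemidesmosome collagen, had 12 and 3, a ratio of 0.261 (0.0473 to 0.968). Lama4 had 0 and 4 counts and Col13a1 4 and 0. The intervals cover counting error only. Those of Col4a6, Col20a1, Col27a1, Col28a1, Col6a5 and Col8a2 included 1. The remaining 6, Col11a1, Col25a1, Col26a1, Col4a3, Col4a4 and Col6a6, had at most 3 counts over either group.

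Genes that make and process collagen were taken from a list of 25, of which 22 were tested, 7 were called higher and 2 lower, with a median log2 fold change of 0.08. Over all genes tested, 17.4% were called higher and 16.1% lower, with a median of 0.01. P4ha3, a prolyl hydroxylase subunit, was at 54.7, 55.4, 56.7, 55.5 and 58.2 CPM and at 76.2, 75.1, 74.8, 81.4 and 78.5 CPM (log2 fold change of 0.46 with SE 0.0451, adjusted p = 6.21e-06 by edgeR). Plod1, a lysyl hydroxylase, was at 102, 98.3, 105, 106 and 114 CPM and at 133, 137, 147, 144 and 129.8 CPM (log2 fold change of 0.39 with SE 0.0519, adjusted p = 7.71e-05 by edgeR). Both were higher in every co-culture library. Those that also rose were P4hb, P3h2, Fkbp10, Colgalt1 and Bmp1, by 0.25 to 0.49 on the log2 scale, and Bmp1 encodes the protease that trims procollagen and activates Lox. Mia3, which loads procollagen into transport vesicles, fell by 0.28, and Adamts14, a procollagen protease, fell by 0.20 (edgeR adjusted p = 0.0277), a call lost with limma on log2(FPKM + 1) (0.0532) and without untreated replicate 2 or 4 or co-culture replicate 1, 3 or 5 (0.0511 to 0.0677). Serpinh1, the collagen chaperone, had a log2 fold change of 0.43 and was not called (edgeR adjusted p = 0.108). Its levels were split within both groups. Untreated replicates 1 and 2 were at 1848 and 1868 CPM, and replicates 3 to 5 at 994.5 to 1079 CPM. Co-culture replicate 2 was at 1263 CPM, against 1929 to 2012 CPM in the other co-culture libraries.

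Of 19 collagen and laminin receptor genes, 16 were tested, 4 were called higher and 1 lower, with a median of 0.09. Of all genes tested, 33.5% were called in either direction, 17.4% higher and 16.1% lower. With library totals as the only scaling, 7 receptor genes were called higher. Itga6, the alpha chain of the main laminin-binding integrins, was at 226, 201, 185, 192 and 184 CPM and fell to 126, 118, 129, 129 and 135 CPM (log2 fold change of -0.63 with SE 0.0606, adjusted p = 5.07e-06 by edgeR). Itgb1, the beta chain that most collagen- and laminin-binding integrins share, was at 0.125, 0.141, 0.0593, 0 and 0.151 CPM and at 0.910, 0.921, 0.920, 0.754 and 1.04 CPM (log2 fold change of 3.20 with SE 0.399, adjusted p = 4.87e-05 by edgeR). That is 7 counts over the untreated and 68 over the co-culture libraries, near the floor for a gene that adherent cells commonly express. Like Lox, it passed the low-count limit only through its co-culture libraries. Itga7 (0.52), Itga2 (0.54) and Sdc1 (0.28) also rose, the call of Itga2 being lost without untreated replicate 2, 3, 4 or 5 or co-culture replicate 1 or 3 (edgeR adjusted p 0.0568 to 0.0704), and the collagen receptor kinases Ddr1 (0.04) and Ddr2 (-0.04, log2 fold changes) were not called (edgeR adjusted p = 0.585 and 0.731).

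Of 25 other matrix glycoproteins and proteoglycans, 16 were tested, 6 were called higher and 2 lower, with a median of 0.20, beside 17.4% higher and 16.1% lower and a median of 0.01 over all genes tested. Thbs1, the thrombospondin gene, was at 23.7, 27.7, 20, 22.4 and 20.6 CPM and at 78.5, 70.2, 72.3, 78.6 and 76.8 CPM (log2 fold change of 1.72 with SE 0.0843, adjusted p = 1.38e-08 by edgeR). Tnc, the gene of the anti-adhesive glycoprotein tenascin, was at 102, 104, 101, 109.9 and 106 CPM and at 183, 177, 176, 186 and 168 CPM (log2 fold change of 0.77 with SE 0.0434, adjusted p = 4.06e-08 by edgeR). Both rose in every co-culture library, and by more than Col4a1, Col4a2 or Col4a5. Fbn1, Fbln1, Fbln2 and Bgn also rose, by 0.62 to 1.85 on the log2 scale. Fbln2, with 32 and 114 counts, was over the low-count limit in 1 untreated library and Bgn in 4, so both were tested through their co-culture libraries. Matn2 fell by 0.88 and Agrn, which encodes the basement membrane proteoglycan agrin, fell by 0.16 (edgeR adjusted p = 0.0273). The call of Agrn was lost with library totals only (0.0632), with limma on log2(FPKM + 1) (0.0622), with the replicate number as a block (0.0694), and without untreated replicate 4 or 5 or co-culture replicate 5 (0.0513 to 0.0694).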

How the data were processed

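The authors deposited 1 table with raw gene counts and FPKM for 10 libraries, per the file headers. Build mm10 and the tools RSEM 1.2.8, Bowtie2 2.2.5 and HISAT2 2.1.0 are listed, without roles, per the submitters' processing notes, while annotation and strand setting were not found in the labels. Libraries were made from 1.3 ug of total RNA after 2 washes, per the labels' protocols. In 9379 well-counted genes (100 or more counts each), the deposited FPKM equalled the counts divided by 1 fixed gene length and the library total, to within 0.00104%. Between-group tests used edgeR 4.0.16 (R 4.3.3; filterByExpr, TMM scaling, two-sided quasi-likelihood F test), with p-values adjusted by Benjamini-Hochberg over 12666 genes. CPM are TMM-scaled, and folds against 0 use 3 counts over the group. In 1 library, 3 counts correspond to 0.175 to 0.232 CPM. Tested on simulated counts for 12666 genes of this comparison, edgeR found 45 of 66 at a simulated 1.5-fold change, 62 of 67 at 2-fold and 65 of 65 at 4-fold, with 4.44% false calls. Far fewer genes were changed there than were called in these data, so the share of false calls need not carry over. No change below 1.5-fold was simulated, so how often smaller changes are found was not tested. Over 20 pairs of libraries within a group, chi-square per degree of freedom was 5.55 to 12.3, so all libraries were kept as separate replicates. Alternatives used RLE or no scaling, DESeq2 1.42.0, limma 3.58.1 on log2(FPKM + 1), other filters, the replicate number as a block, and 1 library left out. Of 34745 identifiers, 34267 (98.6%), and all 65 of the set, are in GENCODE M21. The rule for per-library values took the 26 called genes of the set with a mean of at least 1 CPM in either group, the 3 uncalled ones with the highest FPKM, and the 2 called genes with the smallest p in each of 3 pathway lists; other genes were named after their values were seen. Of these genes, 1 is not reported here, though counts over the set include it. The members and lists were chosen with earlier results of these data known. Reads from the 22 bases where Col4a1 and Col4a2 overlap cannot be told apart if counting ignored strand.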

Additional observations from a re-analysis of the deposited data

Results flagged for a closer look

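In 3 of 80 groups of 5 libraries, 1 library stood apart from the other 4 by Dixon's criterion, where chance flags about 1 in 20 groups, or 4 here. Col1a2 was at 2.59 CPM in co-culture replicate 5, against 3.36 to 3.53 CPM in the other co-culture libraries. Col4a5 was at 141 CPM in co-culture replicate 2, against 156 to 161 CPM. Lamc1 was at 679.7 CPM in untreated replicate 4, against 642.5 to 653 CPM in the other untreated libraries.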

How the results depend on the processing

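Of the 26 called genes of the set at 1 CPM or more, 23 kept their call in each of the 17 alternative settings that tested them, and Col24a1, Col5a1 and Fn1 did not. Beyond single libraries left out, the replicate block ended these 3 calls (edgeR adjusted p = 0.0782, 0.0783 and 0.0551; over all settings 0.0252 to 0.0950, 0.00377 to 0.0783 and 0.0139 to 0.0981), and so did the absence of a low-count filter. DESeq2 and limma also ended the call of Col24a1 (adjusted p = 0.0950 and 0.0564). Genes of the set called higher numbered 21 to 25 and those called lower 3 in every setting, with 21 and 3 under the replicate block, where 3387 of all genes were called against 4248. Same-numbered libraries showed little sign of deviating together (r -0.165 to 0.0596), and only replicate 3 matched its own number best. Pairing by number was thus not seen, but these values cannot exclude that same-numbered cultures were set up together. Without 1 library, 3662 to 4207 genes were called, 21 to 23 of the set were higher and the median was 0.20 to 0.24. Sparc, at a log2 fold change of 0.01, was at -0.00 without the low-count filter and at -0.01 to 0.02 without 1 library, never called. Lamc1 was called with library totals only and with limma (adjusted p = 0.0472 and 0.0419). On the log2(FPKM + 1) scale of limma, fold changes of low genes are smaller, such as 0.22 for Col1a2. With library totals only, 7 receptor genes were higher and 1 other glycoprotein was lower, the lost gene being Agrn. With limma on log2(FPKM + 1), 1 collagen-making gene and 1 other glycoprotein were lower, as was 1 other glycoprotein under the block. Without 1 library, receptors called higher numbered 3 to 5, collagen-making genes called lower 1 to 4 (4 without untreated replicate 5, 1 without untreated replicate 2 or 4 or co-culture replicate 1, 3 or 5) and other glycoproteins called lower 1 to 2 (1 without untreated replicate 4 or co-culture replicate 5). The causes were not tested. At this depth 25 genes of the set could not be tested, 5 of them with 0 counts.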
